A study of Mus musculus with 2 samples.

Results

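The miR-199a, miR-214, miR-143 and miR-145a miRNAs are described here in exosomes released by a murine pancreatic cancer line and by a murine pancreatic ductal epithelial line. The 7 miRNAs were chosen by name: mmu-miR-199a-3p, mmu-miR-199a-5p, mmu-miR-214-3p, mmu-miR-214-5p, mmu-miR-143-3p, mmu-miR-145a-5p and mmu-miR-145a-3p, out of 1881 mouse miRNAs on the array. On the array of MPDC-exosomes 5 of the 7 were detected, whereas on the array of KPC-exosomes none was at the same cut of 3 scanner errors. Of all 1881 miRNAs, 54.8% were detected in MPDC-exosomes and 41.0% in KPC-exosomes. With a cut of 2 errors miR-214-3p was detected on both arrays, and with a cut of 5 errors miR-145a-5p was detected on neither.

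Exosomes were isolated by differential ultracentrifugation from the supernatants of both lines, and the miRNAs of each preparation were measured on 1 Agilent mouse miRNA array in 1 colour (Cy3). KPC-exosomes came from KPC cells, a line grown from the tumour tissue of KrasLSL-G12D/+, Trp53LSL-R172H/+, Pdx1-Cre mice, in which the Pdx1 promoter drives Cre recombinase in cells of the pancreatic lineage, and kept in medium with 20% fetal bovine serum (FBS). MPDC-exosomes, the control of the study, came from a purchased line of ductal epithelial cells kept in medium with 10% FBS, for which the labels give no genotype. For the collection of exosomes both media were replaced by medium with FBS that had been cleared of exosomes by centrifugation. The comparison asks which miRNAs differ between the exosomes of cancer cells and those of ductal cells. Neither label says whether a line is 1 clone, and no tissue or tumour was sampled. With 1 array for each condition there is no replicate, so neither an SD nor a p-value can be given, and precision is limited by the number of arrays throughout. In RNA pooled from a whole preparation, fewer exosomes that carry a miRNA and fewer copies in each exosome cannot be told apart.

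In adult tissues these miRNAs are known mainly from cells of mesenchymal origin, such as fibroblasts, pericytes, stellate cells and smooth muscle cells. miR-199a and miR-214 are cut from a shared long transcript on the strand opposite to a dynamin gene and are induced when hepatic stellate cells become activated, and miR-143 and miR-145 are cut from another shared transcript and help to keep smooth muscle cells differentiated. In epithelial tumours miR-143 and miR-145 are often lower than in normal tissue, which has been traced in part to the share of stromal cells in the sample. Both arms of a hairpin precursor can give a mature miRNA, and the arms are named 5p and 3p. Bases 2 to 8 of a mature miRNA, the seed, pair with target mRNAs and set most of its targets.

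The mature sequences of the miR-199a and miR-214 miRNAs, 4 in all, were matched in RefSeq (GRCm38.p6). They are shown because their seeds set them apart from each other and because 1 of them is identical to miR-199b-3p. Each reads 5′ to 3′ with the seed in capitals.
miR-199a-3p: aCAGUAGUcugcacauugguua
miR-199a-5p: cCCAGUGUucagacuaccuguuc
miR-214-3p: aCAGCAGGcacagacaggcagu
miR-214-5p: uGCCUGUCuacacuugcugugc
miR-199b-3p: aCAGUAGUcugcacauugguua
The 4 seeds all differ. miR-199b-3p, a product of another gene, is identical to miR-199a-3p and had no probe name of its own on the array, so that the signal called miR-199a-3p belongs to either. Of the other miRNAs in the RefSeq table with one of these seeds, only miR-761, which shares the seed of miR-214-3p, was on the array, and none of its 4 probes was detected on either array. The RefSeq table held no mature sequence of miR-199b-5p, so it was not part of this search. Over the matching stretch its gene differs from miR-199a-5p only at base 10, outside the seed. It was on the array and detected in MPDC-exosomes only (66.6 ± 5.73).

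miR-199a-3p lies at chr1:162217883-162217904 on the plus strand and, as a second copy, at chr9:21496498-21496519 on the minus strand of GRCm38.p6. miR-199a-5p lies at chr1:162217844-162217866 and chr9:21496537-21496559, on the same strands. miR-214-3p lies at chr1:162223438-162223459 and miR-214-5p at chr1:162223397-162223418, both on the plus strand, and miR-199b-3p at chr2:32318524-32318545 on the plus strand. In RefSeq the genes of mir-199a-2 and mir-214 lie 5444 bases apart within the spans of the protein-coding gene Dnm3 and of the long noncoding RNA Dnm3os, that of mir-199a-1 within Dnm2 and that of mir-199b within Dnm1, which code for dynamins. The genes of mir-143 and mir-145a lie within the long noncoding RNA Carmn. The hairpins of mir-199a-2 (chr1:162217814-162217923) and mir-214 (chr1:162223368-162223477) are shown with both mature arms in capitals, since an arm detected and an arm not detected come from the same precursor in mir-214.
mir-199a-2: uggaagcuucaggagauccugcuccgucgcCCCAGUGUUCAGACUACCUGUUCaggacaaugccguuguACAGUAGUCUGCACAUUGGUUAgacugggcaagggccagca
mir-214: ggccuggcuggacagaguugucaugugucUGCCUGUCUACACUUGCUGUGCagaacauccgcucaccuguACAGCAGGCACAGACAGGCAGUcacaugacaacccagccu

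A probe was counted as detected when its total signal, an intensity in arbitrary units with the background subtracted, exceeded 3 times the error that the scanner software gave. The signals of the detected probes of a miRNA were added up, and the sum is given with the scanner error after ±. Of all miRNAs, 41.0% were detected in KPC-exosomes and 54.8% in MPDC-exosomes, and 305 (16.2%) were detected in MPDC-exosomes only, as were the 5 miRNAs here. Before normalization the median log2 difference over the miRNAs that both arrays detected was -1.37 (KPC-exosomes minus MPDC-exosomes). The 4 spike-in controls differed by 0.03 on average, from -0.31 to 0.38. After the quantile normalization that gives the authors' values the median over the same miRNAs was 0.53. The choice between these scales moves every size given here, so both are printed. The part that the amount of miRNA on each array had in the result was not tested.

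The 7 miRNAs had 18 probes and 210 spots on each array. In KPC-exosomes 0 of the 18 probes were detected and 1 of the 210 spots was well above the background, and no probe signal reached more than 2.13 times its error. In MPDC-exosomes 9 of the 18 probes were detected and 114 of the 210 spots were well above the background, with probe signals of up to 9.96 times their error. No spot of these probes was saturated.

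**Figure D1:**
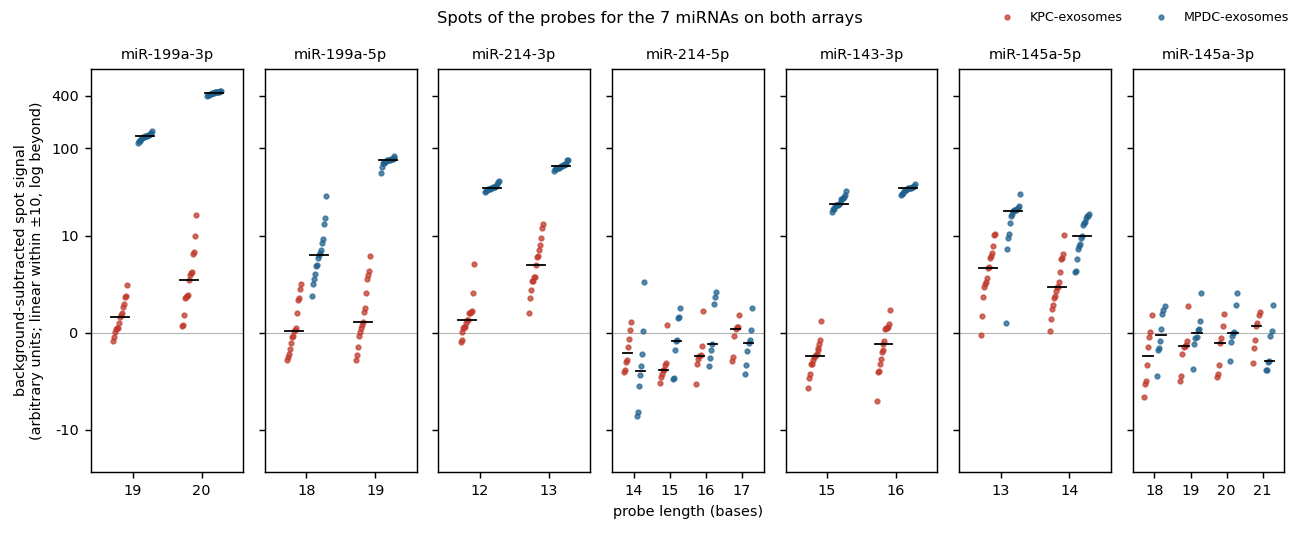
Background-subtracted signal (arbitrary units, linear within ±10 and logarithmic beyond) of every spot of the 18 probes against probe length in bases, in KPC-exosomes (red) and MPDC-exosomes (blue). Each point is 1 spot, points are sorted within a probe and black lines are medians. The spots of miR-199a-3p, miR-214-3p and miR-143-3p do not overlap between the arrays, those of miR-145a-5p overlap, and those of miR-214-5p and miR-145a-3p scatter around 0 on both.

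miR-199a-3p, the 3p arm of the miR-199a hairpins, had a signal of 156 ± 12.5 in MPDC-exosomes, where both of its probes were detected. In KPC-exosomes neither probe was detected, their signals summed to 1.85, and 3 errors over the probes came to 5.61, the limit on the signal there. All 15 spots of its 19-base probe lay above the brightest KPC spot, with 116 as the lowest in MPDC-exosomes and 4.91 as the highest in KPC-exosomes. The 20-base probe gave the same separation, from 397 upwards against up to 17.3. The spots of an array are repeats of 1 hybridization and say nothing about the spread between preparations of exosomes.

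Because KPC-exosomes gave no detected signal for miR-199a-3p, the difference is a bound. It sets the normalized MPDC signal against the lowest normalized signal of any miRNA detected in KPC-exosomes (2.19 on the log2 scale) or against the miRNA's own KPC signal over all its probes, whichever is higher. Neither reference allows for the scanner error of the KPC probes, so bounds of this kind, here and below, are nominal. Only those against 3 errors allow for it. By the nominal bound miR-199a-3p was 14.9-fold lower in KPC-exosomes after normalization and 84.1-fold before it. Against the wider limit of 3 errors it was at least 7.24-fold lower after normalization and at least 27.7-fold before it. Among the 400 miRNAs with a signal of at least 100 in MPDC-exosomes, 41 (10.2%) were not detected in KPC-exosomes, and miR-199a-3p was the only one of the 7 in this range.

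miR-199a-5p, the other arm of the same hairpins, had a signal of 20.0 ± 2.24 in MPDC-exosomes from 1 of its 2 probes, and its probes summed to 0.735 in KPC-exosomes under a limit of 5.59. The 15 spots of the detected 19-base probe lay between 51.6 and 82.5 in MPDC-exosomes and reached at most 7.90 in KPC-exosomes, without overlap. The 18-base probe, which is 1 base shorter, had a signal of 1.96 ± 1.02 in MPDC-exosomes and was not counted as detected, although 13 of its 15 spots lay above the brightest KPC spot. The nominal bound was 2.16-fold lower in KPC-exosomes after normalization and 14.2-fold before it. Against the limit of 3 errors it had no bound after normalization, which ended the 2-fold call, and was at least 3.58-fold lower before it.

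miR-199b-5p, a family partner outside the 7, bears on this signal. Its gene differs from miR-199a-5p by 1 of 23 bases over the stretch of the mir-199b hairpin that matches it, the substitution C10U with positions counted from 1 at the 5′ end of the mature miRNA. The longest probe of each is shown 5′ to 3′, with the only base that differs over 19 bases in capitals.
miR-199a-5p probe: gaacaggtagtctGaacac
miR-199b-5p probe: gaacaggtagtctAaacactgg
Both probes of miR-199b-5p were detected in MPDC-exosomes, with a signal of 66.6 ± 5.73, and neither in KPC-exosomes, where they summed to 1.23 under a limit of 5.60. The nominal bound was 7.75-fold lower in KPC-exosomes after normalization and 47.4-fold before it. Against the limit of 3 errors it was at least 3.23-fold after normalization and at least 11.9-fold before it. The probes of both miRNAs share a run of 13 bases, and how much of either signal came from the other miRNA was not tested. The files place the probes of miR-199a-3p on chromosome 2 of mm9, next to those of miR-199b-5p, and give no position for the probes of miR-199a-5p.

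miR-214-3p had a signal of 27.0 ± 2.44 in MPDC-exosomes from both of its probes, against a sum of 2.30 and a limit of 5.65 in KPC-exosomes. The spots of its 12-base probe lay between 31.8 and 42.2 in MPDC-exosomes and reached 7.09 at most in KPC-exosomes. Those of the 13-base probe lay between 55.2 and 73.6 against at most 13.5. The groups of spots did not overlap for either probe, although the KPC spots of the 13-base probe, with a median of 6.93, all lay above 0. The nominal bound was 2.48-fold lower in KPC-exosomes after normalization and 11.7-fold before it. Against the limit of 3 errors it was at least 1.35-fold after normalization, under the 2-fold threshold, and at least 4.79-fold before it.

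miR-214-5p, the opposite arm of the hairpin, was detected on neither array with its 4 probes. Its probes summed to -1.21 in KPC-exosomes and -0.626 in MPDC-exosomes, under limits of 5.57 and 5.98, and none of its 30 spots was well above the background on either array. The arm therefore has a limit and no direction. The probe signals do not give the ratio of the arms, since each probe binds with its own strength.

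miR-143-3p, the main product of the miR-143 hairpin, had a signal of 16.0 ± 1.82 in MPDC-exosomes from both of its probes. In KPC-exosomes the probes summed to -1.18 under a limit of 5.57. The spots of the 15-base probe lay between 18.7 and 32.3 in MPDC-exosomes and reached 1.21 in KPC-exosomes, and those of the 16-base probe lay between 28.9 and 39.5 and reached 2.37. These were the lowest KPC maxima of any probe that was detected in MPDC-exosomes among the 7 miRNAs, and the spots did not overlap. After normalization the nominal bound was 1.51-fold lower in KPC-exosomes, under the 2-fold threshold. Before normalization it was 11.4-fold. Against the limit of 3 errors there was no bound after normalization and at least 2.88-fold before it. The opposite arm, miR-143-5p, was detected on neither array.

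miR-145a-5p, the main product of the miR-145a hairpin, had a signal of 7.79 ± 1.53 in MPDC-exosomes and was the nearest to the limit of detection. Its probes had signals of 4.58 and 3.21 there, where 3 errors came to 3.33 and 3.15, and 1.75 and 1.39 in KPC-exosomes, where they were not detected. Its spots overlapped between the arrays: 12 of 15 MPDC spots of the 13-base probe and 7 of 15 of the 14-base probe lay above the brightest KPC spot. After normalization its own KPC signal of 3.14 lay above its MPDC signal on the common scale, so that it had no bound, with either limit. Before normalization the nominal bound was 2.49-fold lower in KPC-exosomes, and the bound against the limit of 3 errors was at least 1.38-fold.

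miR-145a-3p, its opposite arm, was detected on neither array with 4 probes, which summed to -0.802 in KPC-exosomes and -0.175 in MPDC-exosomes under limits of 5.57 and 5.97. The related miR-145b was not detected on either array, although its probes summed to 2.97 in MPDC-exosomes. In the deposited values miR-214-5p and miR-145a-3p appear with a log2 difference of 0.71, a value that comes from the floors of the 2 arrays and from no measured signal.

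**Figure D2:**
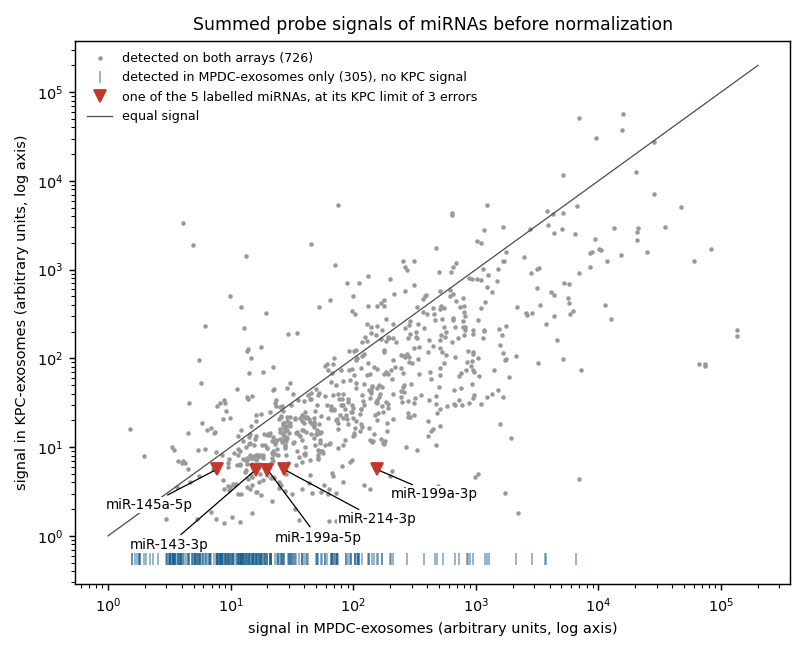
Signal of each miRNA in KPC-exosomes against its signal in MPDC-exosomes before normalization (arbitrary units, logarithmic axes). Grey points are the 726 miRNAs detected on both arrays, blue ticks at an arbitrary height are the 305 detected in MPDC-exosomes only, and red triangles place 5 miRNAs at their KPC limits of 5.57 to 5.66. All 5 limits lie below the line of equal signal, that of miR-145a-5p the closest to it.

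By the nominal bounds after normalization 3 of the 5 detected miRNAs were at least 2-fold lower in KPC-exosomes, namely miR-199a-3p, miR-199a-5p and miR-214-3p. Of the 1077 miRNAs detected on at least 1 array 24.6% were. With limits of 3 errors on the same scale it was 1 of the 5, miR-199a-3p, where 21.2% of all were. Without normalization it was 5 of the 5, where 64.8% of all were, and 4 of the 5 with limits of 3 errors, where 55.8% of all were. The filter of the study, in which an undetected signal takes a floor of 0.1, lists all 5 as lower and 42.7% of all miRNAs. The floor gives log2 differences from -8.92 for miR-199a-3p to -2.43 for miR-145a-5p, sizes which the scanner did not measure. Of the 1031 miRNAs detected in MPDC-exosomes 29.6% were not detected in KPC-exosomes, where it was 5 of 5 here, and that state was more frequent among dim miRNAs. Of the miRNAs with an MPDC signal of 10 to under 100, the range of miR-199a-5p, miR-214-3p and miR-143-3p, 31.3% were not detected in KPC-exosomes, and of those under 10, where miR-145a-5p lies, 69.5%.

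**Figure D3:**
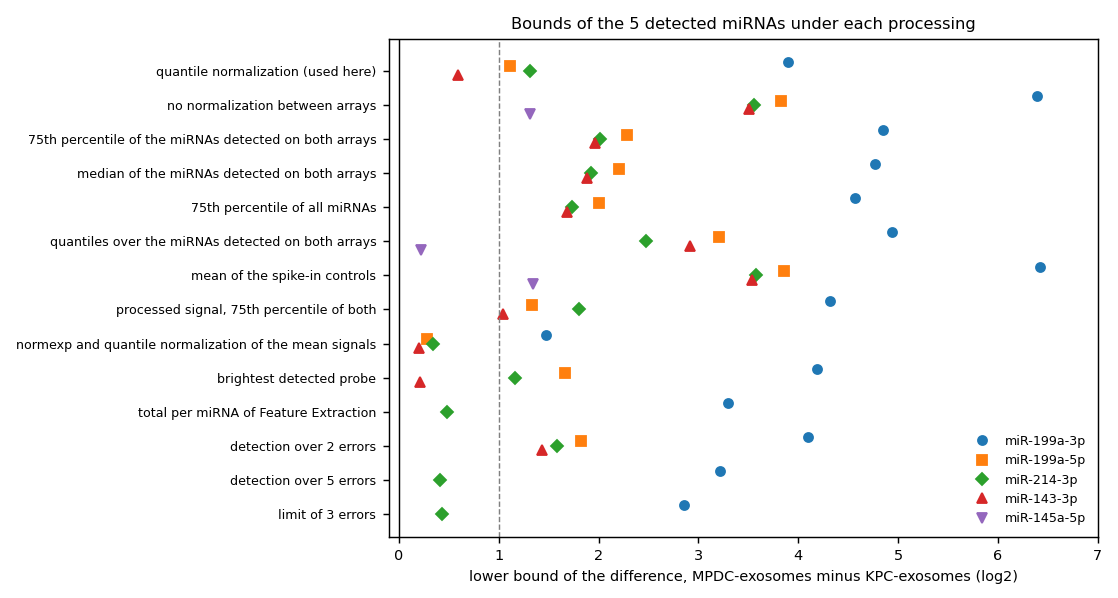
Lower bound of the log2 difference, MPDC-exosomes minus KPC-exosomes, under each way of processing the 2 arrays, with symbols for the 5 miRNAs and a dashed line at 2-fold; a missing symbol means no bound, and the value of miR-214-3p at detection over 2 errors is a measured difference. The bounds are nominal except in the row with limits of 3 errors. miR-199a-3p lies beyond 2-fold in every row, the others in some rows, and miR-145a-5p has a bound in only 3.

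The miRNAs nearest to miR-199a-3p in pattern were those detected in MPDC-exosomes only with the closest normalized signal there, a likeness over just 2 arrays. They were miR-293-5p, miR-335-5p, miR-7b-5p, miR-466m-3p and miR-302c-3p, and the brightest of them before normalization, miR-302c-3p, had a signal of 173 ± 13.7. They lay within 0.17 of miR-199a-3p on the log2 scale, about as close as the scanner error of miR-199a-3p (0.12), so their order is not settled.

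Other miRNAs known from stroma did not share 1 direction. Of 11 such miRNAs 7 were detected in KPC-exosomes and 8 in MPDC-exosomes, and after normalization 3 were at least 2-fold lower and 5 at least 2-fold higher in KPC-exosomes, with a median of 1.12 over the 8 that had a value, 1 of them a bound. Of the 7 miRNAs described here 5 were detected and 3 were lower, where 24.6% of all detected miRNAs were. None of the 7 could come out as higher, because none was detected in KPC-exosomes and such bounds cannot show a reversed direction. The median of the miRNAs described here, -1.21, rests on 4 values that are all bounds, unlike the mostly measured values of the stromal list. Before normalization 3 of the stromal miRNAs were lower and 3 higher, the medians were -0.60 and -3.55, and that of all miRNAs was -1.60. miR-335-5p, which is made within the imprinted gene Mest, was detected in MPDC-exosomes only (147 ± 13.2). miR-10b-5p, which is encoded in a Hox gene cluster, had a signal of 57.9 ± 4.52 in KPC-exosomes and 432 ± 32.3 in MPDC-exosomes. miR-21a-5p, abundant in fibroblasts and in many tumours alike, ran the other way with 51685 ± 4249 against 6934 ± 606, as did miR-100-5p with 321 ± 24.2 against 19.4 ± 2.08. The stromal list thus held miRNAs brighter on each array both before and after normalization.

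The miRNAs of epithelial cells were checked because both lines are epithelial by origin. All 7, the miR-200 family with miR-203-3p and miR-205-5p, were detected in MPDC-exosomes and 5 in KPC-exosomes. After normalization 4 were at least 2-fold lower in KPC-exosomes and none higher, where 24.6% and 31.5% of all detected miRNAs were, with a median of -1.47. Before it all 7 were lower, where 64.8% of all were, and their median was -3.53 against -1.60 for all miRNAs. Their detected signals summed to 98.8 in KPC-exosomes and 1781 in MPDC-exosomes, and ranged from 3.38 to 42.8 and from 18.1 to 991. Before normalization the 5 detected miRNAs described here and the epithelial miRNAs thus had their higher signals on the same array. No epithelial miRNA was higher where the mesenchymal miRNAs were lower. After normalization the same held by the nominal bounds for the epithelial miRNAs and 4 of the 5, while miR-145a-5p had no bound. With limits of 3 errors miR-199a-5p, miR-143-3p and the epithelial miR-203-3p had no bound either. The part that the difference in overall signal between the arrays had in this was not tested.

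**Figure D4:**
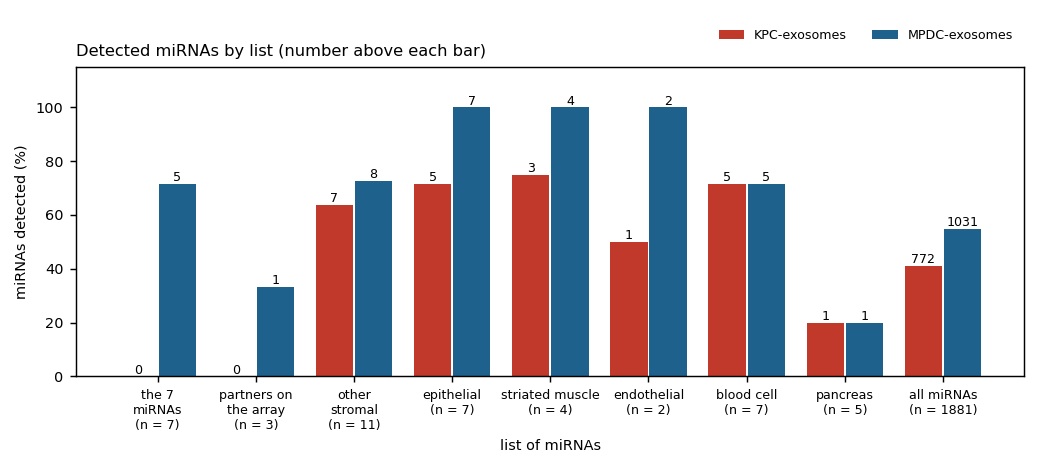
Share of the miRNAs of each list that were detected in KPC-exosomes (red) and MPDC-exosomes (blue), in percent, with the number detected above each bar and the size of each list under it. The 7 miRNAs described here go from 0 in KPC-exosomes to 5 in MPDC-exosomes, whereas of the other stromal miRNAs 7 and 8 were detected.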

How the data were processed

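The authors deposited scanner files for 2 Agilent arrays, 1 per condition, which hold linear intensities and their errors, background-subtracted but not normalized between arrays. The file headers name Agilent Feature Extraction 10.7.1.1 and the submitters' processing notes 9.1. The authors also deposited log2 values normalized in GeneSpring by a method that is not named. The labels describe a cRNA amplification kit with 0.5 µg of RNA, whereas the methods of the study describe Cy3-labelled RNA on a miRNA array, so the labelling is not settled.

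Probe signals over 3 errors were summed for each miRNA, undetected miRNAs were set to 0.1, log2 was taken, and 1881 miRNAs with 21 control features were quantile normalized, which came within 1.11e-05 (log2) of the deposited values. Quantile normalization gives both arrays the same distribution, so it removes a difference in total miRNA, and each signal moves by an amount that depends on its rank. Where the KPC array was at the floor of 0.1 at the rank of a dim MPDC signal, that signal was averaged with the floor. A miRNA undetected in KPC-exosomes received a bound in place of a fold. No test was possible with 1 array per condition. Outlier spots were kept in the counts of spots. The named miRNAs were the 7, their partners and seed mates, the 5 nearest to miR-199a-3p, and members of 7 marker lists (partners, other stromal, epithelial, striated muscle, endothelial, blood cell and pancreas). The members and lists were chosen with earlier results of these data known. The 16 alternatives covered the normalization, the signal, the background, the probe summary, detection, the limit, the floor and the threshold. The calculations were tested on simulated data with the same detection cut for every miRNA, unlike the cut for each probe used here. The simulation therefore does not test the bounds of these probes. Python 3.11.15, numpy 2.4.6, pandas 2.3.3, matplotlib 3.10.9, R 4.3.3 and limma 3.58.1 were used. The RT-qPCR of the study was not analysed here.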

Additional observations from a re-analysis of the deposited data

How the results depend on the processing

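The number of the 7 miRNAs at least 2-fold lower in KPC-exosomes, 3 after quantile normalization with bounds, was 5 without normalization and 5 with scaling by the mean of the spike-in controls, where 64.8% and 65.6% of all detected miRNAs were. It was 4 under 6 others, namely 3 that scaled the arrays by a percentile or median, quantiles over miRNAs that both arrays detected, the processed signal, and detection over 2 errors. Under these 6, from 24.4% to 37.7% of all detected miRNAs were at least 2-fold lower. It was 1, miR-199a-3p, with normexp background correction, with the total that Feature Extraction wrote for each miRNA, with detection over 5 errors, with limits of 3 errors and with a 4-fold threshold. The number lower by the floor filter, 5, was 4 with detection over 5 errors and 1 with normexp. Where the KPC limit lay above the MPDC signal no value was given, so these bounds cannot show a reversed direction. Among the miRNAs of the whole array that passed detection, 13.9% were at least 2-fold lower with normexp and 21.2% with limits of 3 errors. The share was 28.3% with the total of Feature Extraction and 23.5% with detection over 5 errors. With the 4-fold threshold 14.0% were at least 4-fold lower. Over 15 ways of processing, the deposited values among them, the bound of miR-199a-3p ran from -6.42 to -1.48 on the log2 scale and was at least 2-fold in all 15. With detection over 2 errors miR-214-3p was detected on both arrays, and its value there (-1.59) is a measured difference. The values of miR-199a-5p (-3.85 to -0.28) and miR-214-3p (-3.58 to -0.34) were at least 2-fold in 11 each, that of miR-143-3p (-3.54 to -0.20) in 8, and that of miR-145a-5p (-1.34 to -0.22) in 2. miR-199a-5p and miR-143-3p had no bound in 3 of the 15 and miR-145a-5p in 12. The limits, detection over 5 errors and the threshold are stricter by construction, and detection over 2 errors is looser. With normexp an offset of 50 was added to every spot, which shrinks the log2 differences of dim spots by construction. How much of the change with normexp came from the offset was not tested, nor was the cause of the other changes. Signals near the limit of detection restrict miR-145a-5p most, and no replicate preparation exists to set any of these sizes against.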

Other observations

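All 4 miRNAs of striated muscle were detected in MPDC-exosomes and 3 in KPC-exosomes, at signals of at most 22.1. After normalization 1 of them, miR-206-3p, came out as at least 2-fold higher in KPC-exosomes (4.02). Its signals were 10.8 ± 1.56 in KPC-exosomes and 14.2 ± 1.74 in MPDC-exosomes, and the value before normalization was -0.39. Quantile normalization averaged its MPDC signal with the floor, which left 0.25 on the log2 scale, so 4.02 is not a measured size. Before normalization the other 3 were at least 2-fold lower in KPC-exosomes. Both arms of miR-126a, known from endothelial cells, were detected in MPDC-exosomes and the 3p arm in KPC-exosomes (51.3 ± 3.99 against 296 ± 21.8), with none at least 2-fold different after normalization and both lower in KPC-exosomes before it. Of 7 blood cell miRNAs 5 were detected on each array, with 1 at least 2-fold lower and 2 higher in KPC-exosomes after normalization, and 4 lower and 2 higher before it. miR-150-5p was detected in MPDC-exosomes only (109 ± 8.86), and miR-142a-3p was brighter in KPC-exosomes (188 ± 14.0 against 29.1 ± 2.59). Each array detected 1 of 5 pancreas miRNAs, KPC-exosomes miR-217-5p (60.9 ± 3.42) and MPDC-exosomes miR-148a-3p (1190 ± 88.5).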
